A study of Drosophila melanogaster with 4 samples.

Results

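The features described here are the non-coding RNAs of the fly array, that is, all 202 probes of the 32162 non-control probes whose transcript identifier is a RefSeq NR accession, after the 6 probes of the dosage compensation RNAs roX1 and roX2 were left out of 208. Of these 6, 1 was left out by its roX1 symbol alone, since its identifier was not among the roX identifiers set beforehand. The 202 probes stand for 162 genes. RefSeq's gene table for the Release 6 assembly gave a symbol to 156 probes of 127 genes, and the other 46 probes keep their 35 NR identifiers as names. By class, 102 probes belonged to long non-coding RNAs (lncRNAs, symbols with lncRNA, Uhg or a related prefix), 41 to antisense RNAs (asRNAs), 5 to small nuclear RNAs (snRNAs), 5 to small nucleolar or Cajal body RNAs (grouped as snoRNAs), and 1 each to 7SL RNA, RNase MRP RNA and mir-125. Of these genes 31 had more than 1 probe, and in 7 of the 31 the probes carry 2 NR identifiers, that is, different transcripts of the gene.

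The flies were Drosophila melanogaster of the strain w1118, labeled wild type, and whole bodies were taken at 10 days of age. HN males and HN females had been kept in hyperbaric normoxia (HN), a pressure of 2 ATA, as fertilized eggs and up to eclosion, and control males and control females had not. Total RNA of 20 flies made up each of the 4 groups, and each group had 1 Agilent one-color array, so that within a sex no difference has a replicate check. All 4 arrays lie on 1 slide. The HN male, HN female and control female arrays were read in scan 1 and the control male array in scan 2, and for the male arrays scan and treatment therefore cannot be told apart.

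Small nuclear RNAs are the core of the spliceosome, which removes introns, and small nucleolar RNAs guide the chemical modification or cleavage of ribosomal RNA. Many snoRNAs of flies are carried in the introns of Uhg host genes, whose own spliced RNA is not translated. Long non-coding and antisense RNAs are a mixed class, many of them of low level and restricted to a tissue, and the testis is known in flies for expressing a large number of them. The labeling kit named in the methods starts from a primer that anneals to poly(A) tails, which mature snRNAs and snoRNAs normally lack. Which molecules gave the signal of those probes was not tested.

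The non-coding RNA probes were detected more often in males than in females. A probe counted as detected where the scanner software called at least 50% of its spots well above background. In HN males 160 of the 202 probes (79.2%) were detected and in control males 147 (72.8%), against 110 (54.5%) in HN females and 106 (52.5%) in control females. Over all 32162 probes the shares were 79.1%, 72.8%, 68.4% and 67.7% in the same 4 groups. In whole bodies, fewer cells of a type and less RNA per cell cannot be told apart. The gap between the members and the whole array was thus on the 2 female arrays. On all 4 arrays 95 members (47%) were detected, against 61.4% of all probes, and on none 36 members (17.8%), against 17.2% of all probes.

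**Figure D1:**
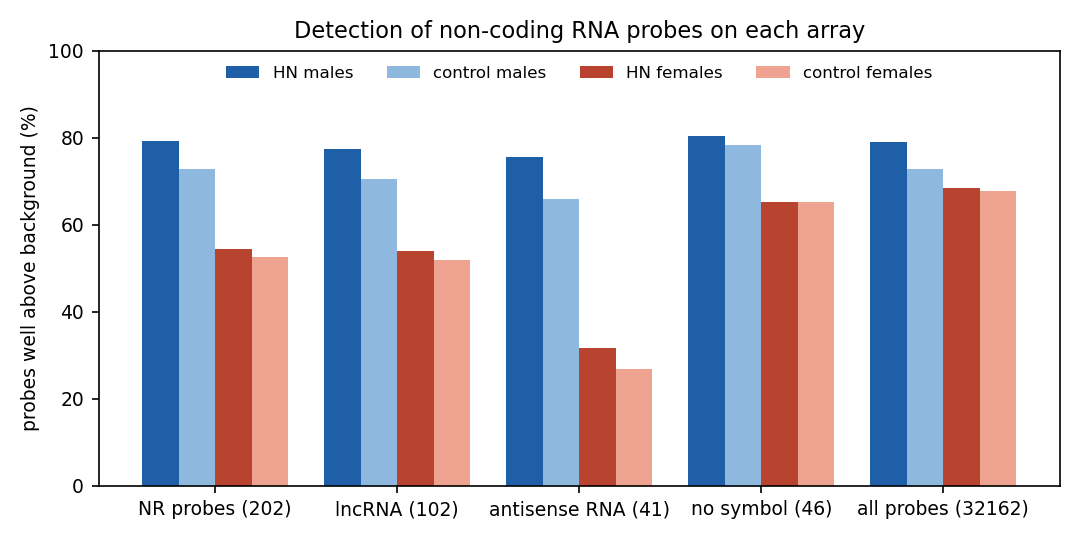
Percent of probes well above background (y axis) on the HN male, control male, HN female and control female array, for all 202 NR probes, for their 3 main classes and for all 32162 probes of the array. Among the 41 antisense RNA probes, 75.6% and 65.9% were detected in HN and control males, against 31.7% and 26.8% in HN and control females.

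Antisense RNAs showed the widest gap between the sexes among the 3 main classes. Of their 41 probes, 31 were detected in HN males and 27 in control males, against 13 in HN females and 11 in control females, and only 8 were detected on all 4 arrays. All 5 snRNA and all 5 snoRNA probes were detected on every array.

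Detection in both male arrays and in neither female array, called male-limited here, was found for 44 members (21.8%) of 34 genes, against 9.06% of all probes. The opposite, female-limited, was found for 4 members (1.98%) of 4 genes, against 1.86% of all probes. The male-limited members were 20 lncRNA probes, 16 antisense RNA probes, 8 probes without a symbol and no snRNA or snoRNA probe. Signals given below are background-subtracted intensities after each array was scaled to its 50th percentile, and they order a probe between arrays, not 1 probe against another. For a probe that is undetected in one sex the difference is a lower bound, taken against the dimmest signal still called above background on that sex's arrays, or against its own dim signal where that was higher. For the 44 male-limited probes the bound ranged from at least 1.28-fold to at least 3297.7-fold with a median of 37.9-fold. It was above 10-fold for 34, above 100-fold for 13 and above 1000-fold for 6 of them. Signals of the 44 probes lay between 15.5 and 50565.9 on the male arrays and between 5.76 and 34.0 on the female arrays. The dimmest detected signal was 5 in HN males and 10.6 in control males, against 14.5 in HN females and 15.1 in control females. On this scale a dim probe was thus called detected more easily in males. The probe with the lowest bound, of CR43609, read 15.5 in HN males and 17.1 in control females, so its signals overlapped between the sexes.

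The NR_048187 RNA, which has no symbol in the table, was read by 5 probes and all were male-limited. Its brightest probe had a signal of 47305.9 in HN males and 50565.9 in control males, against 6.10 in HN females and 6.33 in control females, or at least 3297.7-fold higher in males. Its dimmest probe had 10074.7 in HN males and 11182.4 in control males, against 5.91 in HN females and 6.20 in control females. The 5 probes thus gave the same split, with bounds from at least 715.7-fold to at least 3297.7-fold.

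The lncRNAs CR32661 and CR43279 were male-limited with both of their probes. The first probe of CR32661 read 22809.7 in HN males and 25977.5 in control males, against 7.50 in HN females and 7.59 in control females. The second read 9737.4 and 10780.3 in HN and control males, against 34.0 and 17.9 in HN and control females. Both probes of CR32661 were undetected in females, and the bounds were at least 1641.3-fold and at least 416.2-fold. For CR43279 the 2 probes read 13675.8 and 19379.0 in HN males and 16534.4 and 24422.8 in control males, against 7.36 and 6.35 in HN females and 7.55 and 6.63 in control females.

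Su(Ste) RNAs come from repeats of the Y chromosome and give rise to the small RNAs that silence the Stellate repeats in the testis. Su(Ste):CR42418 read 235.9 in HN males and 279.3 in control males, against 6.82 in HN females and 8.78 in control females. Su(Ste):CR42406 read 60.1 in HN males and 57.9 in control males, against 6.73 in HN females and 6.95 in control females. Both were male-limited, by at least 17.3-fold and at least 3.98-fold. Su(Ste) copies are alike in sequence, so a probe may read several of them.

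The 4 female-limited members were dim. The antisense RNA CR42871 read 9.56 in HN males and 9.71 in control males, against 147.2 in HN females and 172.7 in control females. The lncRNA CR43626 read 9.90 and 13.0 in HN and control males, against 128.7 and 141.9 in HN and control females. NR_037750 read 5.00 and 6.46 in HN and control males, against 92.7 and 149.4 in HN and control females. The bounds of these 3 probes and of the first of the 2 probes of NR_048308 were from at least 8.82-fold to at least 16.2-fold higher in females.

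**Figure D2:**
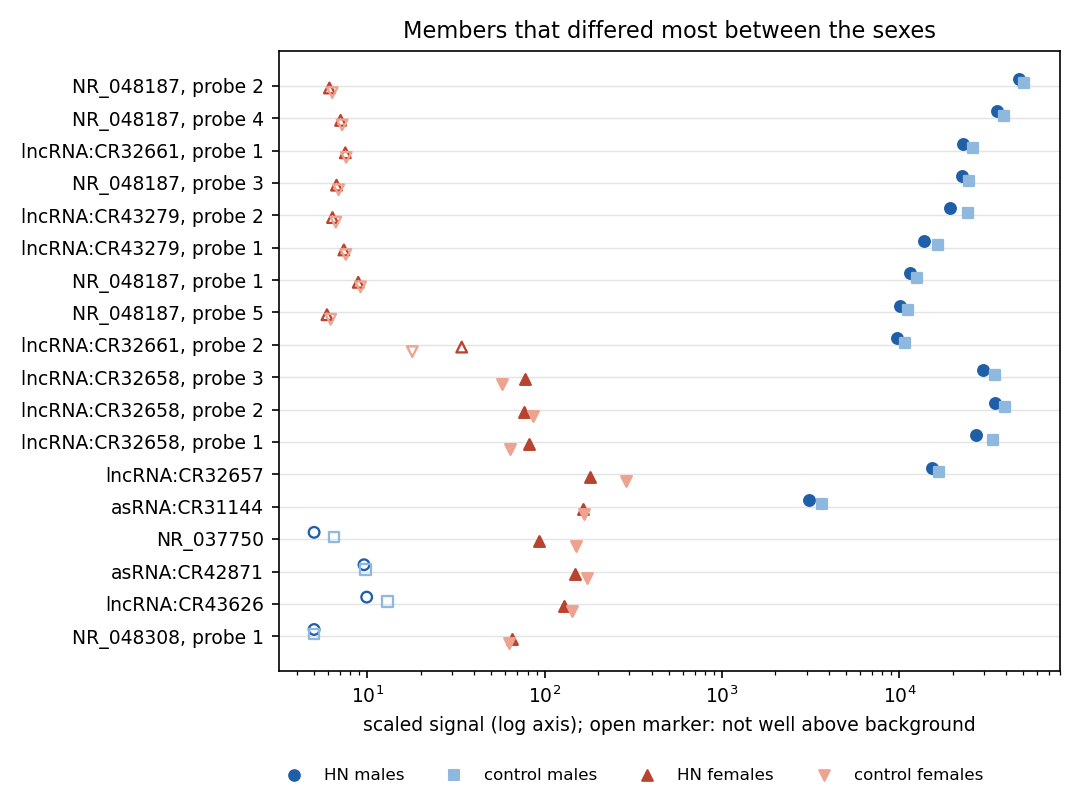
Scaled signal (x axis, log scale) of single probes on the HN male, control male, HN female and control female array, with open markers where the probe was not well above background. From the top are the 9 male-limited probes with the highest bounds, the 5 largest male-minus-female differences among probes detected on all arrays, and the 4 female-limited probes. The male and female markers are apart for each probe, by the way the probes were chosen. The HN and control markers of a sex lie closer together, though CR32657 and NR_037750 were more than 1.5-fold lower in HN females.

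For the 95 members detected on all 4 arrays, the difference between males and females was tested with limma, the 2 arrays of a sex serving as its replicates and treatment left in the error. Scaling decides the sign of small differences here. The median male minus female difference of all 19758 probes tested was -1.45 on the log2 scale with the 50th percentile and lay between that and 0.33 over the 5 scalings tried, so that only larger differences keep their direction. The members' median was -1.21 with the 50th percentile, 0.244 above that of all probes. With that scaling 12 members passed an adjusted p of 0.05 as higher in males and 71 as lower, where 9.83% and 73.4% of all probes did. With the 75th percentile the split was 55 higher and 26 lower, with quantile normalization 29 and 47, without scaling 30 and 32, and with the median of the probes detected on all arrays 61 and 22. The median of all probes tested was 0.154, -0.631, -0.338 and 0.330 in the same order, so the splits moved with the whole array. The members' median stood 0.339 above it with quantile normalization and 0.244 above it in the others. Shares of all probes are not given for these splits. Members that passed in the same direction in all 5 scalings were 12 higher (12.6% of 95, from 9 genes) and 22 lower (23.2%, from 21 genes), where 8.46% and 37.4% of all probes tested did. Without the control male array, the only one of scan 2, the members' median stood 0.206 above that of all probes with the 50th percentile.

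**Figure D3:**
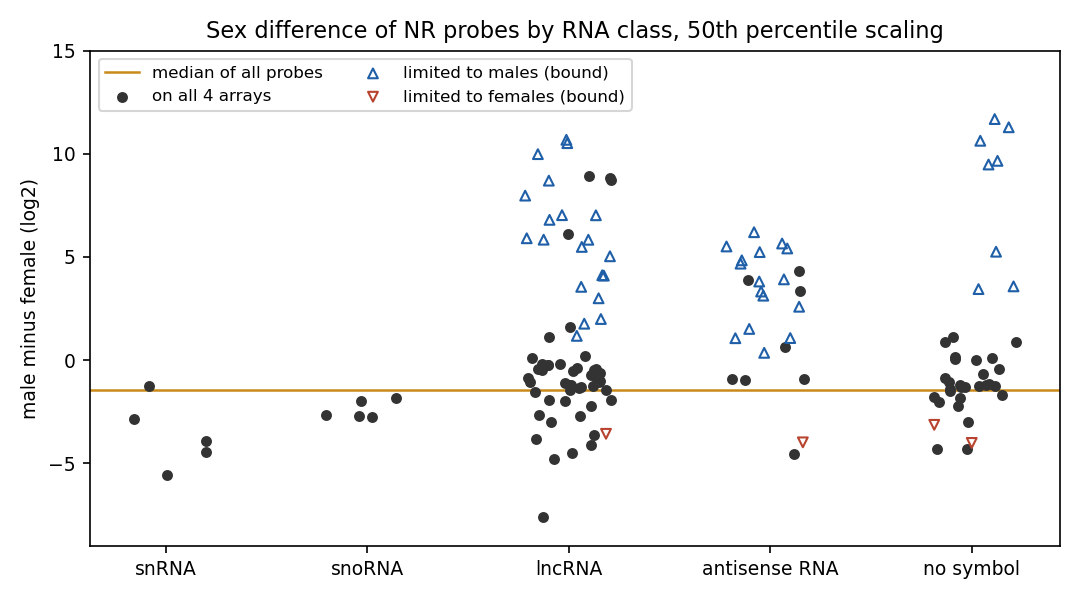
Male minus female difference on the log2 scale (y axis, 50th percentile scaling) of NR probes by RNA class. Points are probes detected on all 4 arrays, triangles are lower bounds of probes limited to 1 sex, and the line is the median of all probes tested (-1.45). Another percentile or no scaling moves the points and the line together. Quantile normalization also moves points against the line, and the members' median is then 0.339 above it instead of 0.244. The snRNA points are at -1.26 and below.

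Most probes of the splicing and ribosomal RNA machinery were lower in direction in males in every scaling. The limma test passed in all 5 scalings for 4 of 5 snRNA and 3 of 5 snoRNA probes. Of all 19758 probes tested, 7384 (37.4%) passed as lower in males in all 5. For snRNA:U11 of the minor spliceosome the signal was 61.4 in HN males and 75 in control males, against 3370.6 in HN females and 3064.2 in control females, a male minus female difference of -5.57 (95% interval -5.90 to -5.23, limma adjusted p = 1.99e-07). For its partner snRNA:U12 the signal was 140.2 in HN males and 176.1 in control males, against 3718.2 in HN females and 3302.0 in control females, a difference of -4.48 (limma adjusted p = 3.73e-07). The 2 U1 copies, which recognize the start of introns, differed by -2.85 (snRNA:U1:21D) and -3.93 (snRNA:U1:82Eb). These 4 passed in all 5 scalings. The U2 copy snRNA:U2:34ABb differed by -1.26 with the 50th percentile and by up to 0.52 with others, so its direction depended on the scaling. U1 copies are near-identical, and 1 probe may read several of them.

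All 5 snoRNA probes lay between -1.82 and -2.78. The U3 copies of ribosomal RNA cleavage read 1168.6 and 1233.2 in HN and control males, against 8300.1 and 8169.7 in HN and control females (snoRNA:U3:54Aa, -2.78), and 1125.0 and 1333.8 in HN and control males, against 8133.9 and 7370.0 in HN and control females (snoRNA:U3:9B, -2.66). Together with snoRNA:Psi28S-291, named for pseudouridylation of 28S ribosomal RNA (-2.73), the U3 copies passed as lower in males in all 5 scalings. The differences of snoRNA:Psi28S-2566 (-1.82) and scaRNA:MeU5-C46 (-1.99) did not pass in every one of them.

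The snoRNA host genes went the same way. Uhg3 was read by 2 probes at 451.7 and 540.3 in HN males and 561.4 and 675.0 in control males, against 10892.8 and 16163.3 in HN females and 11914.7 and 16961.4 in control females. Their differences were -4.50 and -4.78 (limma adjusted p = 3.3e-07 and 2.78e-07). Uhg2 differed by -4.10 and Uhg5 by -3.63, and all 4 Uhg probes passed in all 5 scalings, where 37.4% of all probes tested did. RNase MRP RNA, which cleaves precursor ribosomal RNA, read 1482.2 in HN males and 1765.5 in control males, against 6698.4 in HN females and 6437.1 in control females (-2.02), and it did not pass in every scaling. The 7SL RNA of the signal recognition particle differed by -0.67, and its direction depended on the scaling.

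**Figure D4:**
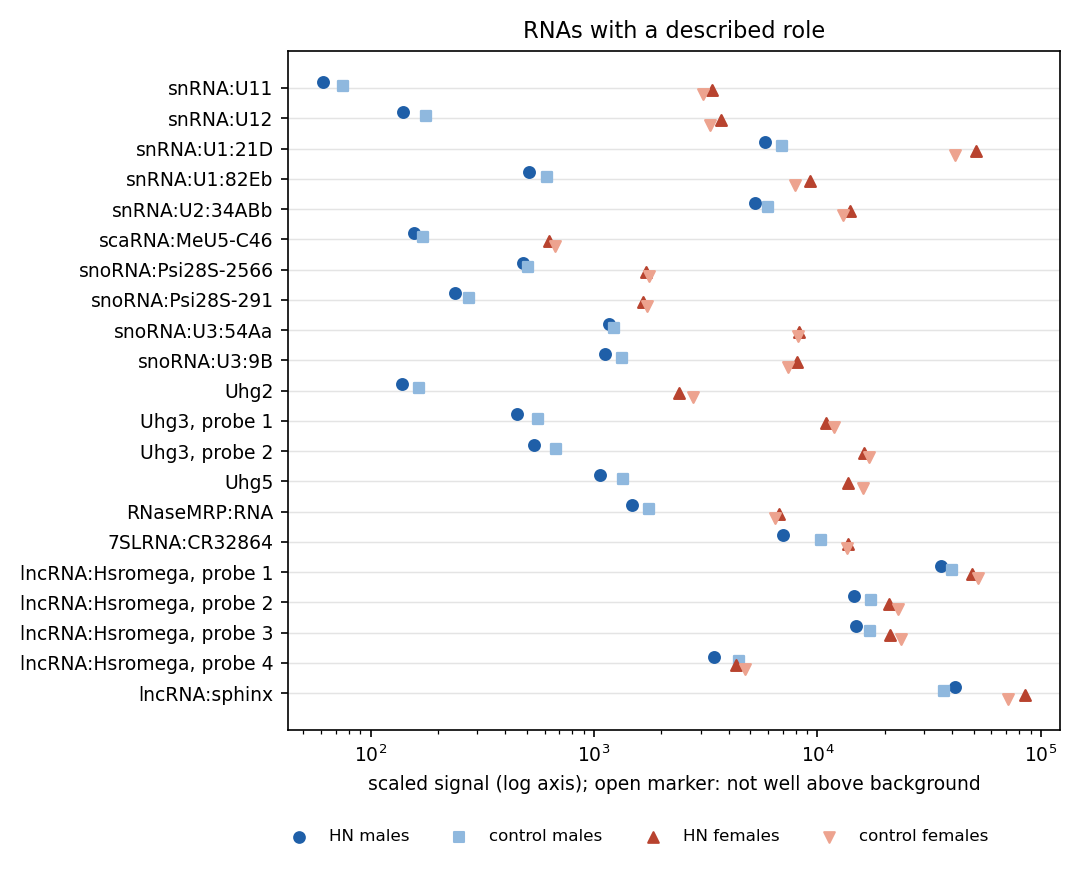
Scaled signal (x axis, log scale) of RNAs with a described role on the HN male, control male, HN female and control female array. The snRNA, snoRNA, Uhg and RNase MRP probes are brighter on both female arrays with this scaling, and the RNase MRP probe has a male minus female difference of -2.02 on the log2 scale, while the 4 Hsromega probes lie between -0.48 and -0.21.

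The other RNAs of the list with a described role had no direction that held in all scalings, or were detected on at most 1 array. The heat shock RNA Hsromega, which organizes nuclear omega speckles, was read by 4 probes of 2 transcripts with differences of -0.48 to -0.21, which is 0.97 to 1.24 above the median probe, and its direction depended on the scaling. The lncRNA sphinx, known for a role in male courtship, read 41397.4 in HN males and 36945.3 in control males, against 84751.5 in HN females and 71352.0 in control females, and its direction (-0.99 with the 50th percentile) depended on the scaling too. The bithorax complex RNAs bxd and iab8, and yar, were detected on no array, and mir-125 on the HN male array alone.

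The largest difference downward among members on all 4 arrays was that of the lncRNA CR32027, which read 14.7 in HN males and 24.6 in control males, against 3561.8 in HN females and 3854.5 in control females (-7.61, 95% interval -8.17 to -7.04, limma adjusted p = 3.2e-07). The antisense RNA CR43257 read 53.1 and 77.0 in HN and control males, against 1472.8 and 1492.1 in HN and control females (-4.54). Both RNAs were named for the size of their difference, so the gap between their male and female signals follows from that choice.

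The lncRNAs CR32658 and CR32657, which are next to each other in the gene order of the reference table, had the largest differences upward among members detected on all 4 arrays, where the male-limited members above are not counted. The 3 probes of CR32658 read 27118.9 to 34393.8 in HN males and 33806.6 to 39444.6 in control males, against 76.2 to 81.7 in HN females and 57.7 to 85.7 in control females. Their differences were 8.72, 8.83 and 8.91 (limma adjusted p = 1.44e-07, 9.9e-08 and 1.34e-07). CR32657 read 15200.2 in HN males and 16758.8 in control males, against 180.5 in HN females and 287.5 in control females, a difference of 6.13 (95% interval 5.60 to 6.66, limma adjusted p = 4.8e-07). The antisense RNA CR31144 followed with 3091.4 and 3647.0 in HN and control males, against 164.3 and 166.8 in HN and control females (4.34).

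Of the markers of sex that the table names, Vm34Ca, Dup99B, roX1 and roX2 differed between the sexes the way their labels say, and soti gave no signal. The vitelline membrane gene Vm34Ca, of the egg covering, was undetected in males and read 29200.3 in HN females and 27252.7 in control females. The male reproductive gene Dup99B read 5052.7 and 5111.1 in HN and control males, against 30.2 and 6.06 in HN and control females, and was detected in HN females and not in control females. The 4 roX1 probes were bright in males and, in females, dimmer in HN (33.8 to 109.0) than in control flies (74.4 to 811.1). The testis gene soti was above background on no array, so it checks nothing, and only 5 of the 23 markers listed had a named probe.

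HN over control was then compared within each sex, where a probe was detected on at least 1 of the 2 arrays, with a limit of 1.5-fold and no test. Ratios are HN over control, the reverse of the division written in the methods. In males 6 of 161 members (3.73%, 5 genes) were higher in HN and 6 (3.73%) lower, where 4.19% and 2.24% of all probes compared were. In females 4 of 113 members (3.54%) were higher in HN and 4 (3.54%) lower, where 3.83% and 3.14% of all probes were. No member passed the limit the same way in both sexes and none in opposite ways, of 108 compared in both. Of all 21490 probes compared in both sexes, 1.21% passed the same way and 0.4% in opposite ways, so a count of 0 among 108 is near that background. Without scaling between arrays the split in males was 16 higher and 2 lower. The whole array shifted too, with a median log2 ratio of 0.274 for all probes detected on both male arrays, against 0.209 for the members. With the normexp background correction, 2 were higher and 3 lower in males, and none was past the limit in females. That correction adds 50 to each signal, which shrinks the ratios of dim probes. Shares of all probes are not given for these settings. The log2 ratios of repeat spots had a pooled SD of 0.197 in males (12 probes) and 0.0737 in females (9 probes) for the members, and of 0.103 and 0.0934 for all probes, which covers spot error only.

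In limma, with sex in the model and 1 residual degree of freedom, no member of the 95 passed an adjusted p of 0.05 as higher or lower in HN, where 0.147% and 0% of all probes did, and 9 (9.47%; 3 higher, 6 lower) had an unadjusted p under 0.05, near the 9.91% of all probes. The lowest adjusted p among members was that of the antisense RNA CR42860, which read 170.0 in HN males and 100.5 in control males (0.76 on the log2 scale), and 102.6 in HN females and 70.2 in control females (0.55), with a limma adjusted p of 0.162. It passed the limit in males and stood just outside it in females, and with normexp it was within the limit in both (0.32 in males, 0.22 in females). NR_001662 was next, with ratios of 0.43 and 0.03 for its 2 probes in males and 0.47 and 0.52 in females, and a limma adjusted p of 0.266 for the first probe.

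**Figure D5:**
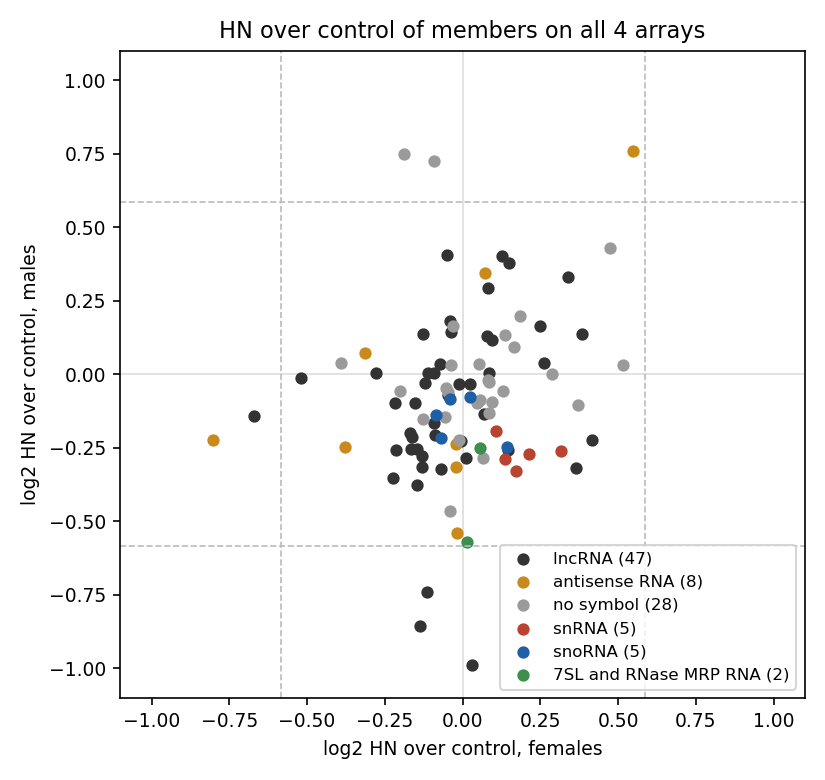
Log2 HN over control in females (x axis) and in males (y axis) for the 95 members detected on all 4 arrays, colored by class, with dashed lines at the 1.5-fold limit. The 5 snRNA points lie in the quadrant of higher in HN females and lower in HN males, with points of other classes. No point is beyond the limit on both axes.

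In males, besides CR42860, the NR_002478 RNA was higher with both of its probes. They read 1403.2 and 1348.9 in HN males, against 835.6 and 816.3 in control males (0.75 and 0.72), and 560.7 and 547.8 in HN females, against 639.3 and 583.9 in control females (-0.19 and -0.09). The other 3 calls upward were bounds, on probes detected in HN males and not in control males, namely NR_026654 (1.28), the antisense RNA CR42742 (1.07) and the second probe of the lncRNA CR9162 (0.86), whose first probe, also a bound, was just outside the limit (0.50). The HN male signals of these 3 lay between 19.2 and 27.8, near the background.

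Of the 6 members lower in HN males, 5 were lncRNAs. CR42839 read 30.6 in HN males, against 60.7 in control males (-0.99), while the second probe of the gene, which carries the identifier of another transcript, had a ratio of -0.03. CR43301 read 151.3 in HN males, against 274.2 in control males (-0.86), and 903.0 in HN females, against 993.9 in control females (-0.14). The male ratio of CR43301 was 0.09 with normexp, which also took median spot signals in place of the background-subtracted intensities. The antisense RNA CR43609 (-0.81), CR32027 (-0.74) and CR33948 (-0.63, just inside the limit) followed. CR34024 was a bound (-2.13), detected in control males at 21.8 and not in HN males. CR43609 and CR32027 read 15.5 and 14.7 in HN males, against 27.1 and 24.6 in control males, also near the background. Just outside the limit was the antisense RNA CR31429 (-0.58).

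In females all 4 calls upward, none of which held with normexp, were bounds, on probes detected in HN females and not in control females. The lncRNA CR43605 read 69.6 in HN females, against 7.32 in control females (2.20), the antisense RNA CR43637 read 45.8, against 13.2 (1.60), the lncRNA CR41443 read 36.5, against 6.43 (1.27), and the second probe of the antisense RNA CR43159 read 55.8, against 24.9 (1.17). The first probe of CR43159, detected on all arrays, had a ratio of -0.02, so the 2 probes of that gene disagreed. Of probes detected on both female arrays, none of the members was more than 1.5-fold higher in HN.

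Lower in HN females were CR33218, a bound, with 18.5 in HN females, against 51.0 in control females (-1.46), and 3 members detected on both arrays, and none of these 4 held with normexp either. The antisense RNA CR43465 read 44.9 in HN females, against 78.4 in control females (-0.80), NR_037750 read 92.7, against 149.4 (-0.69), and CR32657 read 180.5, against 287.5 (-0.67). With normexp their ratios were -0.35, -0.41 and -0.46 in that order. Since normexp adds 50 to each signal, falling within the limit there is a weak check of probes this dim. Just outside the limit was the first probe of CR31044 (-0.52).

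Of the 8 members past the limit in females, in either direction, 7 (87.5%) were brighter, with the 50th percentile scaling, on both male arrays than on both female arrays, where 20 (17.7%) of the 113 members compared were. Of all probes past the limit in females, 339 of 1572 (21.6%) were brighter on both male arrays, against 13.6% of all 22546 compared. Of the 8 members, the 4 upward and 1 downward were bounds, on probes undetected on 1 female array. Such dim probes pass the limit more easily than most of the 113, so the shares are not of like probes. CR33218, for one, read 2319.0 in HN males and 2438.0 in control males, and CR43605 read 260.4 and 264.1. The male markers roX1 and Dup99B, given above, also differed between the female arrays, in opposite directions, roX1 lower and Dup99B higher in HN. The male marker roX2 was undetected on both female arrays. The part of these markers in the ratios was not tested.

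The snRNAs had small ratios of opposite sign in the sexes, none past the limit or the limma test. In males all 5 probes were lower in HN (median -0.27, between -0.33 and -0.19), and in females all 5 were higher in HN (median 0.17, between 0.11 and 0.32). Among them snRNA:U1:21D had the largest ratio in females. Its probe read 5803.8 in HN males, against 6960.9 in control males (-0.26), and 51200.9 in HN females, against 41166.2 in control females (0.32). Over all probes the medians were -0.07 in males and -0.06 in females. Among probes detected on both arrays of a sex, 14821 of 23252 were below 0 in males and 7512 of 21237 above 0 in females. Without scaling the male median of the snRNAs was 0.08 with all 5 probes above 0, while that of all probes was 0.27. Relative to the median of all probes, the snRNA median in males was -0.197 with and without scaling. The snoRNA medians were -0.14 in males and -0.04 in females, and the 4 Uhg probes were between -0.35 and -0.26 in males and between -0.22 and -0.07 in females. Like the snRNAs, RNase MRP RNA (-0.25 in males, 0.06 in females) and 7SL RNA (-0.57 and 0.01) had opposite signs. So did the U3 copies snoRNA:U3:9B (-0.25 and 0.14) and snoRNA:U3:54Aa (-0.08 and 0.02). The other snoRNA probes were below 0 in both sexes.

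The male-limited members as a group were slightly lower in HN males, with a median log2 ratio of -0.23 and 41 of 44 below 0. All 2914 male-limited probes of the array had a median of -0.20 with 2541 below 0, so the members were close to that background. Without scaling the median of the 44 was 0.12.

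The probes with the highest signals, which is no order of RNA levels between genes, were those of NR_004022, NR_004018, NR_003994, NR_004021 and NR_004042, none with a symbol in the table. NR_004022 read 281079.9 in HN males and 292501.2 in control males, against 702086.9 in HN females and 641341.4 in control females, a male minus female difference of -1.23, whose direction depended on the scaling. Among the 31 genes with several probes, all probes were male-limited in 7, no probe was limited to a sex in 21, and the probes differed in 3, namely NR_048308 and the genes CR30267 and CR43372.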

How the data were processed

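The authors deposited the intensity of every spot, background-subtracted by Agilent Feature Extraction (version 11.5.1.1 in the submitters' processing notes, an earlier one in the methods) and unscaled, and a table of probe intensities within 0.1% of spot means for 98.98% to 99.3% of probes. Control spots and outlier flags were left out, spots of a probe averaged on the log2 scale, each array scaled to its 50th percentile, and signals under 5 then set to 5. The methods give the same percentile and floor, with the floor set before scaling. No spot was saturated. The number of arrays limits the precision. limma 3.58.1 in R 4.3.3 was run on probes detected on all 4 arrays with Benjamini-Hochberg adjustment, and the fits were tested on simulated data. Because no mean-signal column was used, normexp (offset 50) took median signals. Alternatives are given in the closing section. Members and lists were chosen with earlier results of these data known. Named were the highest and lowest ratios and sex differences, the brightest and sex-limited members, RNAs with a described role and members beside the limit. CR33218, CR43605 and other calls past the limit were named after their values were seen. The array design predates the reference assembly, so the table served for names and gene order alone.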

Additional observations from a re-analysis of the deposited data

Results flagged for a closer look

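The 5 snRNA probes had ratios of opposite sign in the sexes, none past 1.5-fold or the limma test, with a median log2 HN over control of -0.272 in males, all 5 below 0, and 0.171 in females, all 5 above 0. Whether the sexes differ here was not tested, since each group has 1 array. Without scaling between arrays, which moves all probes of an array alike, all 5 male ratios were above 0, and with the normexp background correction 4 of 5 were below 0. The female direction was the same in all 5 scalings and with normexp. Relative to the median of all probes, the snRNA median was -0.197 in males and 0.229 in females both with the 50th percentile and without scaling, and -0.091 and 0.199 with normexp. The control male array was read in another scan than the other arrays, and its part in the male ratios was not tested.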

How the results depend on the processing

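Detection counts and sex-limited counts stayed within 1.5 times under both alternatives. Shares of all probes are not given for the counts of this paragraph. Higher and lower counts of HN over control moved as follows. In males they were 16 and 2 without scaling, 2 and 3 with normexp, and 2 and 1 with a limit of 2-fold, and the higher count was 3 from the table of probe values and 3 with detection on both arrays. Without scaling the median log2 ratio in males was 0.274 over all probes and 0.209 over the members. In females they were 0 and 0 with normexp and 18 and 12 with no filter on detection, the higher count was 0 with detection on both arrays, and the lower count was 1 with 2-fold. With normexp the limma test called 1 member higher in HN, a count that cannot be set against the share of all probes. Male-higher and male-lower counts were 55 and 26 (75th percentile), 29 and 47 (quantile), 30 and 32 (no scaling), and 61 and 22 (median of shared probes, chosen after seeing the data). The median of all probes moved with them, as given above. Male-higher was 62 with detection on both arrays of 1 sex and 62 with no filter. There the members' median stood 0.756 and 0.366 above that of all probes. Both settings take in the 44 male-limited members, the first because they are detected in males. These values are therefore no separate support for a male bias. Leaving out each array left the members' median 0.206 to 0.319 above that of all probes.

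Of 1036 single values recomputed, 816 moved by less than the repeat-spot SD of all probes. Sign changes numbered 40, of which 15 were HN over control ratios in males without scaling, and 16 were of probes past their limit or test, as follows. In males CR43301 was 0.094 with normexp. The others are male minus female differences relative to the median probe, which limma did not test. It tested the difference itself, which was -1.42 for NR_003994 and -2.02 for RNase MRP RNA, against relative values of 0.028 and -0.571. Relative to the median probe, with detection on both arrays of 1 sex and with no filter, NR_004022 was -0.047 and -0.403, NR_003994 -0.243 and -0.599, the second probe of NR_004021 -0.131 and -0.486 and snRNA:U2:34ABb -0.079 and -0.435. With no filter NR_004018 was -0.329 and sphinx -0.168, and with quantile normalization NR_004042 was 0.339 and RNase MRP RNA 0.263. NR_003994 was -0.031 with normexp and between -0.183 and 0.244 with each array left out, -0.183 without the control female array and -0.015 without the control male array. The cause was not tested. Each group has 1 array, so no paired analysis within a sex was possible. The HN minus control fit had sex as a term. With treatment as a term in the male minus female fit, 13 members were higher and 73 lower, and shares of all probes are not given. Levels near background carry only bounds, and treatment ratios have no replicate within a sex.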

Other observations

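Among the no-symbol members, NR_037720 and the second probe of NR_037721 had the same male minus female difference of -4.33 on the log2 scale and passed as lower in males in all 5 scalings. NR_037720 read 336.4 in HN males and 373.8 in control males, against 6813.8 in HN females and 7438.8 in control females. The second probe of NR_037721 read 52.0 and 60.7 in HN and control males, against 1122.6 and 1132.5 in HN and control females, while its first probe differed by -1.82.

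The lncRNA CR42862 was read by 5 probes of 2 transcripts, the brightest of them for NR_037746 and the other 4 for NR_048204. They read between 395.6 and 70497.6 in HN males and between 378.4 and 65050.1 in control males, against 652.3 to 161511.8 in HN females and 544.5 to 151104.2 in control females. Their male minus female differences stayed between -1.31 and -0.61, and their HN over control ratios between -0.26 and 0.38 in males and between 0.08 and 0.26 in females.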
